A study of Mus musculus with 3 samples.

Results

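Of 41388 genes in the deposited count tables, 10 are described here: the neurotrophin genes Bdnf, Ntf3 and Ntf5, the Trk receptor genes Ntrk2 and Ntrk3, Ngfr, which encodes the p75 receptor, and the sortilin family genes Sort1, Sorcs1, Sorcs2 and Sorcs3. They were chosen by name as a family, with earlier results of these data known, and all 10 were found. The RNA came from mouse embryos at day 14.5 of gestation, from cells of the dorsal root ganglia (the clusters of sensory neurons along the spine) sorted for EGFP driven by Ret, the receptor gene for ligands of the GDNF family. Library A pooled 100 ganglia of 5 embryos, library B 100 ganglia of 6 embryos and library D 80 ganglia of 4 embryos, from spinal levels T11 to S1 (the label of D writes TS11 to S1), with both sexes in each pool. The genotype label of each library reads Tg(Ret-EGFP)SJ on a C57BL/6 background, whereas the series text describes EGFP placed in the Ret locus of C57BL/6J heterozygotes. These 3 libraries form 1 group. No EGFP-negative cells and no other age are among them, so nothing below says how the sorted cells differ from the rest of the ganglion. They hold between 20181558 and 29061086 counts. Markers of sensory neurons were abundant in all of them (8 of 8 reached 1 TPM, with a summed level of 24419 to 29707 TPM), but Schwann and satellite glia markers were not absent (9 of 12 reached 1 TPM, summing to 575 to 958 TPM), and no marker of the 8 cell type lists was at 0 in all 3 libraries.

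Neurotrophins are secreted as precursors that are cut to mature factors, and they keep developing sensory neurons alive and shape their axons. TrkB, encoded by Ntrk2, is the receptor tyrosine kinase for BDNF and NT-4, and TrkC, encoded by Ntrk3, is the one for NT-3. In the ganglion they mark sets of mechanoreceptors and proprioceptors. The p75 receptor has a death domain in place of a kinase, binds all neurotrophins, and pairs with sortilin or its relatives to bind the uncut precursors. Sortilin and the SorCS proteins also carry cargo between the Golgi, endosomes and the cell surface.

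The scale for comparing genes with each other was TPM, a count divided by gene length and scaled to the same sum in each library. Of the 10 genes, 9 averaged at least 1 TPM, against 55.3% of all protein-coding genes. Ngfr led by a wide margin in each library. Ntf3, Bdnf, Ntrk3 and Ntrk2 followed in that order in all 3 libraries, Sorcs3 and Sort1 came next, and Sorcs1, Sorcs2 and Ntf5 closed the order in all 3. In RNA from pooled cells, a low level cannot be split into few cells with much RNA and many cells with little.

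**Figure D1:**
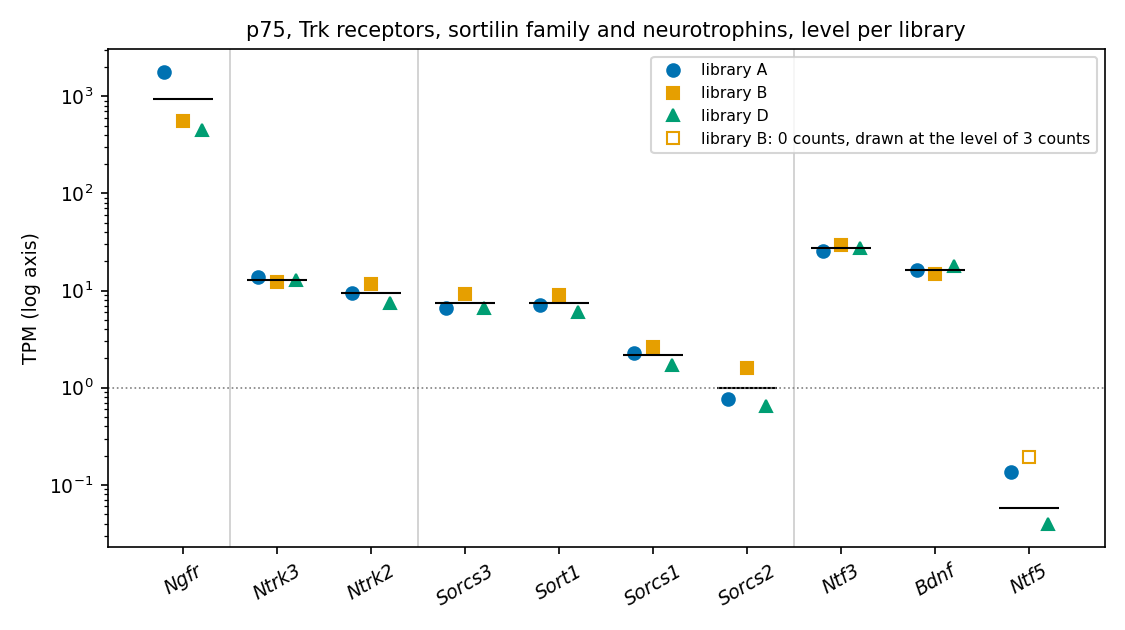
Level of each gene in TPM (log axis) in libraries A, B and D, grouped as p75, Trk receptors, sortilin family and neurotrophins; black lines are means over 3 libraries and the dotted line marks 1 TPM. Ngfr lies between 453 and 1785 TPM, above every other gene in every library, and Ntf5 had no counts in B, where the open square marks the level of 3 counts.

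Ngfr (ENSMUSG00000000120, chromosome 11, 95568818 to 95587735 on the minus strand, GRCm38.p2) reached 1785, 557 and 453 TPM in A, B and D, from 46646, 15280 and 20221 counts. Library A stood well above B and D, which lay close to each other. The mean of 932 ± 741 TPM (SD, n = 3) placed the gene at rank 139 among protein-coding genes, and without A it was 505 TPM. All 6 deposited exon intervals belong to the gene alone, and the annotation gives it a single transcript, so neither shared exons nor a choice of isoform enters its length of 3446 bases. The level in A was 3.21-fold that in B and 3.94-fold that in D on the TPM scale. With the trend of level on gene length removed in each library, these folds were 3.20 and 2.84.

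The sequence before the start of Ngfr, the most abundant member, is shown with that of Ntrk2, a Trk receptor gene of far lower level. Both come from RefSeq on GRCm38.p6, are written 5′ to 3′ on the strand of the gene, and stop before the first annotated exon base, Ngfr at chr11:95587736-95587948 and Ntrk2 at chr13:58806319-58806568. Capitals mark the letters GGGCGG on either strand, the core of the GC box that transcription factors of the Sp family are known to bind.
Ngfr: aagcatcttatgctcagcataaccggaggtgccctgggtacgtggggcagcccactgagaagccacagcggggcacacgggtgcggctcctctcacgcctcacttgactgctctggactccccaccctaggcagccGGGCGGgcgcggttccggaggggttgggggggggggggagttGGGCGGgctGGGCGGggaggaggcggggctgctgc
Ntrk2: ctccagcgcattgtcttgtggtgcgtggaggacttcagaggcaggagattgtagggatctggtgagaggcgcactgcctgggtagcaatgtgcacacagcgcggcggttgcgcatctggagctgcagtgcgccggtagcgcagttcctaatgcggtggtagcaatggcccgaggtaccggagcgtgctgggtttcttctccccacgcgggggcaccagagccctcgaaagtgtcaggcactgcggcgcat
The 213 bases printed for Ngfr hold GGGCGG at 3 places and the 250 bases printed for Ntrk2 at none. The 250 bases before the RefSeq start of Ngfr hold 4 such places. This window, from 95587699 to 95587948, runs into the annotated exon, which reaches 95587735. Of all 32851 RefSeq windows of that length, 32.7% hold at least 1. The letters TATAAA were in neither window on either strand, and in 12.4% of all windows. GC made up 70.4% of the 250-base window of Ngfr, exon bases included, and 62.8% of that of Ntrk2, against a median of 52.4%. Among other members far less abundant than Ngfr, the window of Sorcs1 held GGGCGG at 2 places and that of Sorcs3 at none. Each of the 2 windows of Ntf3 held GGGCGG at 1 place. These letters are a description of the sequence, and the libraries do not measure what binds there.

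Schwann cell precursors and sympathetic neurons are also known to make p75, so the levels of Ngfr were set beside markers of other cells. The 12 Schwann and satellite glia markers summed to 575, 906 and 958 TPM in A, B and D, which is lowest where Ngfr was highest. Of the defining glial genes, Sox10 stood at 4.67, 11.1 and 6.86 TPM in A, B and D, and Gfap had at most 1 count in a library. Sympathetic neuron markers followed the order of Ngfr (A, B, D) at a far lower level, summing over 5 genes to 9.78, 6.69 and 2.56 TPM, of which 2 reached 1 TPM. The 5 macrophage markers summed in the same order to 16.2, 11.2 and 6.68 TPM. The sum of the 5 endothelial markers, of which 1 reached 1 TPM, also ran so, at 4.77, 4.03 and 3.27 TPM. Their median did not, at 0.463, 0.325 and 0.388 TPM in A, B and D. The 8 mesenchyme markers were highest in B (19.2, 70.9 and 19.4 TPM) and the 6 erythroid markers in D (84.8, 74.8 and 304 TPM). Their part in the level of Ngfr was not tested.

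Among 7156 other genes of at least 10 TPM, those whose log2 CPM moved most like that of Ngfr over the 3 libraries were Mir124a-1hg, a host gene of a neuronal microRNA, Zfp711 and Zfp445, which encode zinc finger proteins, Abcc5, a transporter gene, and Dgat1, an enzyme gene of triglyceride synthesis. Likeness was the Euclidean distance of centred log2 CPM, from 0.066 for Mir124a-1hg to 0.22 for Dgat1, and with 3 libraries it only describes which genes were also high in A. Mir124a-1hg stood at 20.6, 6.12 and 4.87 TPM in A, B and D. All 5 were far less abundant than Ngfr.

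Both Trk receptor genes were expressed at modest levels, with a coefficient of variation over the libraries of 6.18% for Ntrk3 and 21.7% for Ntrk2. Ntrk3 (ENSMUSG00000059146, chromosome 7, 78192362 to 78578408, minus strand) stood at 13.8, 12.2 and 12.7 TPM in A, B and D, from 547, 509 and 864 counts. Ntrk2 (ENSMUSG00000055254, chromosome 13, 58806596 to 59133970, plus strand) stood at 9.51, 11.6 and 7.44 TPM, from 996, 1272 and 1329 counts. The ranges of the 2 genes did not overlap, but in B they lay only 1.05-fold apart. Summed, they came to 23.3, 23.8 and 20.2 TPM in A, B and D.

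Which Trk gene is the higher depends on the length by which counts are divided. With the deposited lengths, 13806 bases for Ntrk2 and 5241 for Ntrk3, the log2 ratio of Ntrk2 to Ntrk3 was -0.53, -0.076 and -0.78 in A, B and D. Its sign turned as CPM without any length (mean log2 0.94), and also with the longest annotated transcript, held to at most the deposited length, as the divisor (0.20 ± 0.36, SD, n = 3). The Ntrk2 length sums the exons of isoforms with and without the kinase domain. The annotation lists 7 coding transcripts with 5 different coding lengths, so a count for the gene does not tell full-length TrkB from truncated TrkB. Likewise, Ntrk3 has 6 coding transcripts with 6 different coding lengths, from 248 to 2592 bases, so its count does not tell isoforms apart either. For Ntrk3, GENCODE M21 extends the gene 16403 bases beyond the 3′ end of the deposited exons, and 159604 bases beyond the 5′ end, and reads from those stretches are not in the deposited count.

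Within the sortilin family, Sorcs3 and Sort1 were the main genes and stood at nearly the same level. Sorcs3 (ENSMUSG00000063434, chromosome 19, 48206025 to 48805505, plus strand) reached 6.67, 9.29 and 6.64 TPM in A, B and D. Sort1 (ENSMUSG00000068747, chromosome 3, 108284091 to 108361511, plus strand), which encodes sortilin, reached 7.03, 9.07 and 6.00 TPM. Their ranges overlapped almost fully, and the log2 ratio of Sort1 to Sorcs3 was -0.035 ± 0.11 (SD, n = 3, exact sign-flip p = 0.75). Of the summed level of the 4 family genes, Sort1 made up 42.1% in A and 40.2% in B, with D slightly lower, and Sorcs3 39.9%, 41.2% and 44.2% in A, B and D.

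The other members of the family were scarcer. Sorcs1 (ENSMUSG00000043531, chromosome 19, 50143301 to 50678646, minus strand), whose product sorts cargo in neurons, stood at 2.25, 2.61 and 1.73 TPM in A, B and D. It lies 1338 kb from Sorcs3 on the same chromosome and on the opposite strand, and its level was 3.43-fold lower (log2 ratio of Sorcs1 to Sorcs3 -1.78 ± 0.19, lower in 3 of 3 libraries). Sorcs2 (ENSMUSG00000029093, chromosome 5, 36017180 to 36398139, minus strand), whose product is a p75 partner for precursor neurotrophins, had 51, 112 and 73 counts in A, B and D. That gave 0.764, 1.60 and 0.641 TPM, so library B alone lay above 1 TPM and the mean was 0.702 TPM without it. Sort1 exceeded Sorcs1 3.35-fold (log2 1.74 ± 0.09) and Sorcs2 7.88-fold (log2 2.98 ± 0.41), in 3 of 3 libraries each, and the ratio to Sorcs1 was the tightest of all pairs. Of the exons of Sort1, 4.35% lie opposite Gm12523, which had no counts, and the exons of the other 9 genes overlap no other deposited gene.

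Of the ligands, Ntf3 and Bdnf were expressed and Ntf5 was close to undetected. Ntf3 (ENSMUSG00000049107, chromosome 6, 126101413 to 126166744, minus strand), which encodes NT-3, stood at 25.8, 29.2 and 27.4 TPM in A, B and D. Bdnf (ENSMUSG00000048482, chromosome 2, 109674700 to 109727007, plus strand), which encodes BDNF, stood at 16.2, 15.0 and 18.0 TPM, from 765, 742 and 1447 counts. With the deposited lengths, the lowest library of Ntf3 lay above the highest of Bdnf, and their coefficients of variation over the libraries were 6.24% and 9.19%. The mean log2 ratio of Ntf3 to Bdnf was 0.75 ± 0.19 (SD, n = 3). Divided by the longest annotated transcript it was 0.15 ± 0.19, so the size of this gap rests on the lengths used. Ntf5 (ENSMUSG00000074121, chromosome 7, 45413695 to 45417178, plus strand), which encodes NT-4, had 2 counts in A, 1 in D and none in B. The exact 95% Poisson intervals reach 0.486, 0.236 and 0.219 TPM in A, B and D, for counting error only. The square drawn for B in the plot of levels stands at 3 counts, or 0.192 TPM.

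Ligand genes were set against the receptors of their products within each library. Ntf3 exceeded Ntrk3 1.87-fold, 2.40-fold and 2.15-fold in A, B and D, and Bdnf exceeded Ntrk2 1.71-fold, 1.30-fold and 2.42-fold. The 3 ligand genes summed to 42.2, 44.2 and 45.4 TPM, which was 1.81, 1.86 and 2.25 times the sum of the Trk genes. The sorting receptors summed to 16.7, 22.6 and 15.0 TPM, between 0.718 and 0.950 of the Trk sum. Ngfr alone was 76.7, 23.4 and 22.5 times the Trk sum in A, B and D. Without length correction, as CPM, mean log2 ratios turned to -0.79 for Ntf3/Ntrk3, -0.35 for Bdnf/Ntrk2 and -1.38 for Ntf3/Bdnf. Divided by the longest annotated transcript, held to at most the deposited length, they kept their direction, at 1.09, 0.69 and 0.20. That divisor was chosen after seeing the data. These orders therefore rest on a division by length, here by 1427 bases for Ntf3, 6217 for Bdnf, 5241 for Ntrk3 and 13806 for Ntrk2.

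**Figure D2:**
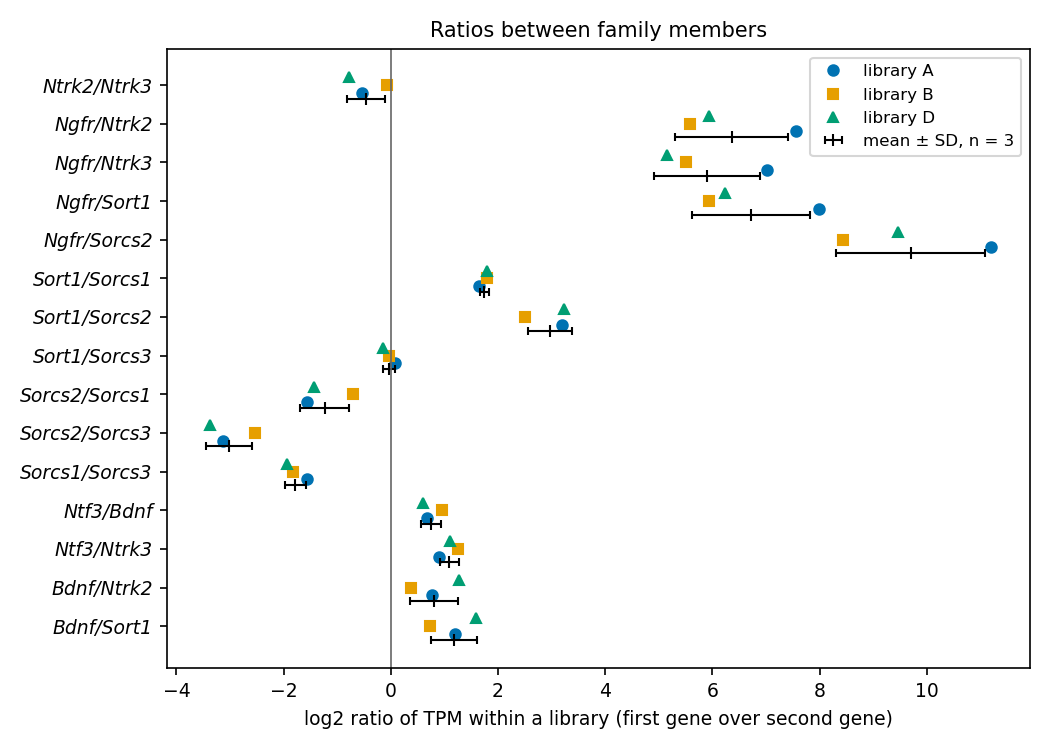
Log2 ratio of TPM within a library (x axis) for 15 pairs of genes (y axis); symbols are libraries A, B and D and bars the mean ± SD over 3. Ngfr lies 5.15 to 11.19 log2 units above the Trk and sorting receptor genes it was paired with, Sort1 and Sorcs3 scatter around 0, and ligand genes lie to the right of their receptors.

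Of 17 planned pairs, 15 could be tested, each gene having 10 or more counts per library, and 14 of these had the same sign in 3 of 3 libraries. Ngfr exceeded Ntrk2 82.0-fold (log2 6.36 ± 1.05), Ntrk3 59.5-fold (5.90 ± 0.99), Sort1 106-fold (6.72 ± 1.11) and Sorcs2 832-fold (9.70 ± 1.39). These sizes depend on library A, and without it the mean log2 ratio of Ngfr was 5.76 to Ntrk2, 5.33 to Ntrk3, 6.09 to Sort1 and 8.96 to Sorcs2. Without B, the ratio to Sorcs2 was 10.33. The exact two-sided sign-flip permutation test gave p = 0.25 for each of the 14, the smallest value 3 libraries allow, and 0.268 after Benjamini-Hochberg adjustment over the 15, so no ratio could pass 0.05. Of the 8 neighbouring pairs in the order of levels that had enough counts, the mean log2 ratio exceeded its SD in 7. Bdnf stood above its neighbour Ntrk3 by 0.34 ± 0.14 and Ntrk2 above Sorcs3 by 0.33 ± 0.17. The order was ranked on the same libraries, which fixes the direction of these differences, so they describe the gaps and are given with no test. Sorcs3 and Sort1 were the neighbours that did not differ beyond their spread.

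Differences between the libraries were tested with edgeR's goodness-of-fit of an intercept-only model, which asks whether a gene varies more than others of its level. Over all genes, 24 of 13530 passed an adjusted p of 0.05, a background of 0.177%. Of the 10 genes, 9 had enough counts to be tested and none was called. By unadjusted p under 0.05, Ngfr alone stood out, as did 6.11% of all genes tested, and with DESeq2's size factors and dispersion trend the count of called members was also 0. For Ngfr, log2 CPM in A exceeded the mean of the others by 1.65 (edgeR adjusted p = 0.22). Over the 6 other settings with all libraries, its adjusted p ran from 0.085 to 0.40, and the gene was called only without library D, at an edgeR adjusted p of 0.0083. Without A its adjusted p was 1.00 and without B 0.96.

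**Figure D3:**
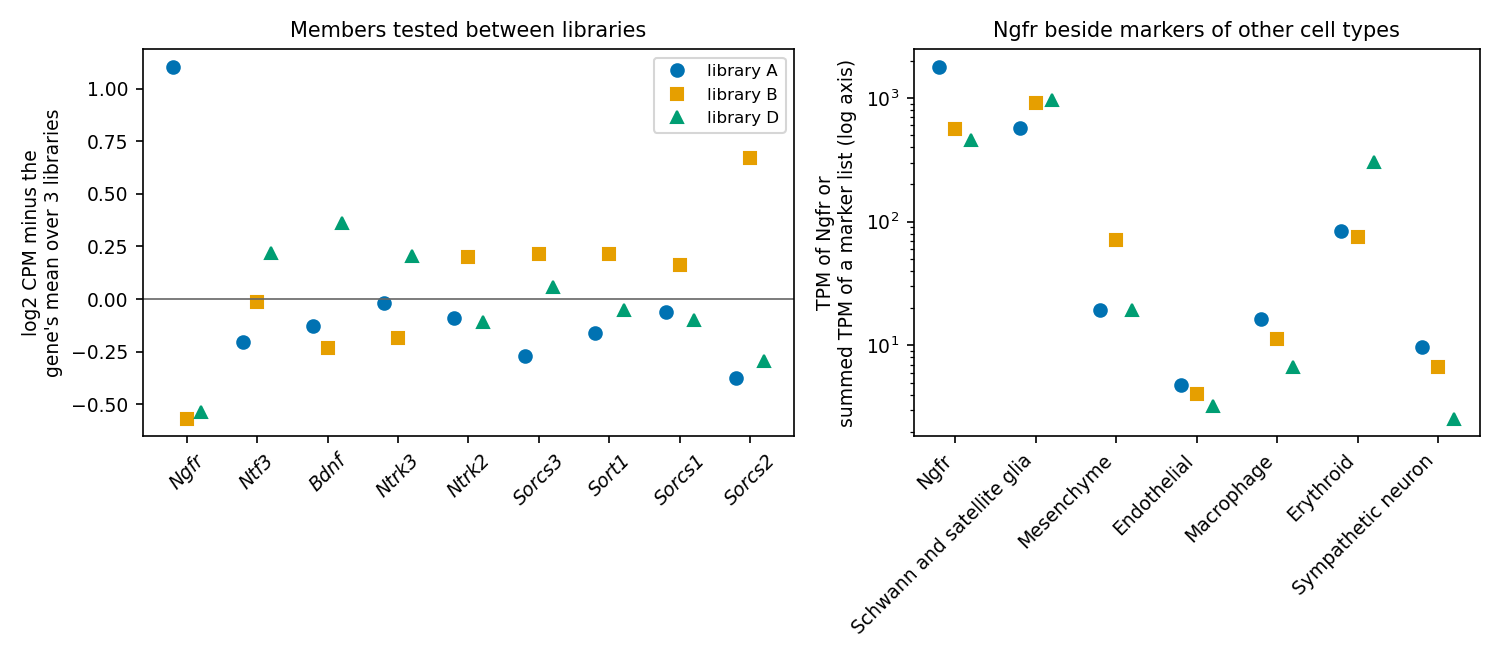
Left, log2 CPM of the 9 tested genes in each library minus the gene's own mean; right, TPM of Ngfr beside the summed TPM of markers of 6 other cell types (log axis), by library. Ngfr in A lies 1.10 above its mean, the other genes lie at most 0.67 from theirs, and the glial sum is lowest in A.

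None of the other members moved as far. Sorcs2 was the next, with log2 CPM in B 1.01 above the mean of A and D, and Bdnf in D lay 0.54 above the mean of A and B. Ntrk2, Sorcs3, Sort1 and Sorcs1 were all highest in B, by 0.24 to 0.32, and none of the 4 was called. Levels also moved with gene length, and this trend differed between the libraries. Genes under 2 kb had a median log2 CPM, minus each gene's own mean, of -0.20, -0.10 and 0.29 in A, B and D. For genes of at least 5 kb it was 0.15, -0.009 and -0.098, so A stood out most there. Against A and B, genes under 2 kb lay 0.44 higher in D (median difference in log2 CPM), and genes of at least 5 kb 0.15 lower. With that trend removed, Ntf3, at 1427 bases the shortest member, went from 0.33 above A and B in D to 0.03 below (-0.03), and Bdnf, at 6217 bases, from 0.54 to 0.76 above.

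Genes that act with these receptors and ligands were described from 6 lists of 60 genes, of which 57 reached 1 TPM, against 55.3% of protein-coding genes. None of the 57 tested was called between libraries by edgeR, against 0.177% of all genes tested. With DESeq2's size factors and dispersion trend none was called either. An unadjusted edgeR p under 0.05 was found for 4 of the 57, against 6.11% of all genes tested, so neither count sets these genes apart. Partners of p75 included some of the most abundant genes described here. Arhgdia, whose product holds small GTPases inactive, stood at 1509, 1688 and 1205 TPM in A, B and D. Bex3, listed under its older name Ngfrap1, reached 1303 ± 182 TPM and Maged1 940 ± 221 TPM (SD, n = 3), and the products of both bind the intracellular part of p75. All 12 genes of this list reached 1 TPM, with a median of 29.5 ± 6.44 TPM (mean and SD of the medians in 3 libraries, as for the other lists). Lingo1 (51.1 ± 14.3 TPM) and Rtn4r (9.28 ± 3.41 TPM), which encode co-receptors in the complex of p75 with the Nogo receptor, were both expressed.

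Trk adapters were at lower levels. All 13 reached 1 TPM, with a median of 13.6 ± 4.17 TPM. Grb2 (98.4 ± 9.91 TPM), a link to Ras, led the list, followed by Kidins220 (50.5 ± 17.5 TPM), a scaffold bound by Trk receptors and p75, and Shc2 (25.0 ± 2.70 TPM), a neuronal Shc adapter. Shc3, another neuronal Shc gene, was the lowest at 1.31 ± 0.43 TPM. All 7 genes for receptor cleavage were expressed, led by the gamma-secretase gene Ncstn (105 ± 28.2 TPM), with Adam10 (64.5 ± 6.10 TPM), a sheddase gene, above Adam17 (8.11 ± 3.90 TPM), which encodes the sheddase of p75.

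Precursor processing genes were uneven. Cpe, which encodes carboxypeptidase E of the regulated secretory pathway, reached 569, 827 and 938 TPM in A, B and D. Pcsk2 (83.6 ± 18.4 TPM) and Serpini1 (82.7 ± 26.7 TPM), which encode a prohormone convertase and an inhibitor of tissue plasminogen activator, came next. Furin, whose product cuts precursor neurotrophins in the Golgi, averaged 1.19 ± 0.09 TPM, and Pcsk7, of the same convertase family, 24.8 ± 11.6 TPM. Plg, the gene of plasminogen, which cuts precursors outside the cell, had no counts in any library, while Plat, its activator, stood at 54.0 ± 9.16 TPM.

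Genes for sortilin traffic ranged from 1.88 TPM for Hap1 to 460 TPM for Vps29, with a median of 35.8 ± 11.4 TPM. Vps29 (460 ± 55.7 TPM) and Vps35 (443 ± 175 TPM), parts of the retromer that returns sortilin from endosomes, and Ap1m1 (303 ± 29.7 TPM), of the AP-1 adaptor, led a list in which 11 of 11 reached 1 TPM. Sorl1, the remaining gene of the receptor family and not among the 10, stood at 2.82 ± 0.98 TPM. Of the other ligands of sortilin, Psap (259 ± 34.2 TPM), Lrpap1 (221 ± 24.8 TPM) and Grn (40.9 ± 0.96 TPM) led, and Apob had 2 counts in A and none elsewhere.

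**Figure D4:**
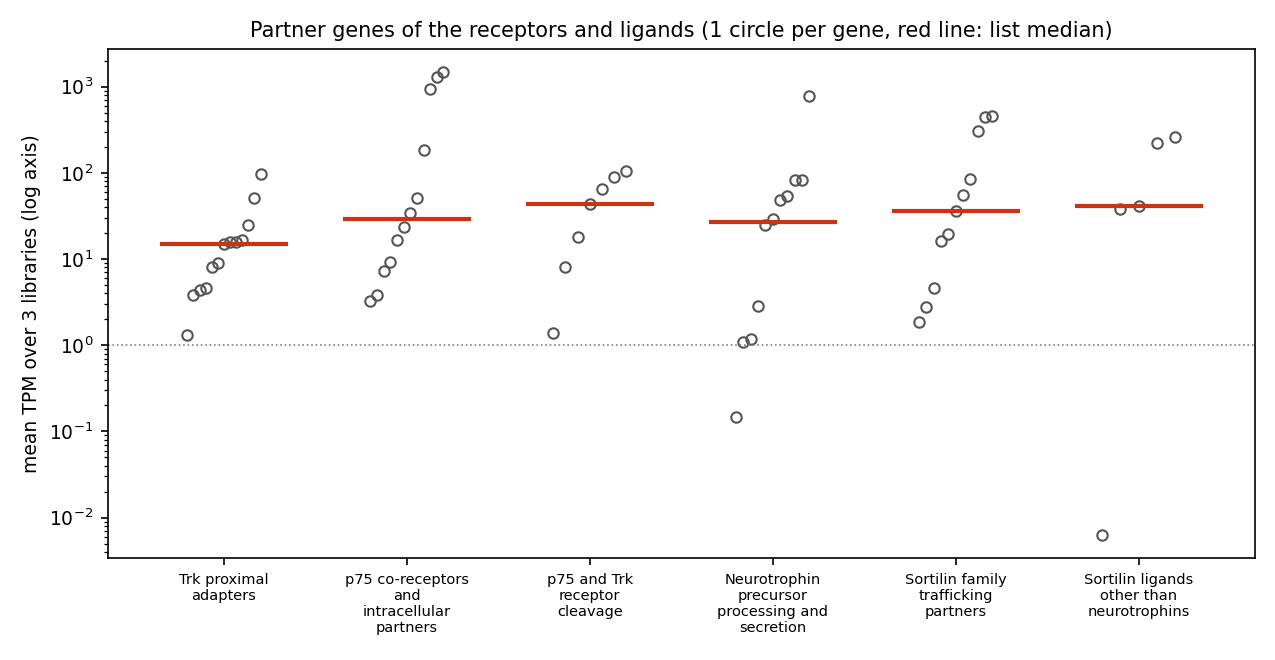
Mean TPM over 3 libraries (log axis) of each gene in 6 lists of partner genes; circles are genes, red lines the medians of these means and the dotted line 1 TPM. Arhgdia, Bex3 and Maged1 stand highest in the p75 partner list, and Plg, with no counts, is not drawn.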

How the data were processed

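Whole-number counts per Ensembl gene, with exon coordinates and lengths, were deposited by the authors for each library. The tools named are Subread and featureCounts 1.4.5, with build GRCm38.p2, per the submitters' processing notes. Settings for strand and multi-mapping reads were not given in the sources used here. Per the labels' protocols, 10 ng of RNA was reverse transcribed and amplified with a low-input kit, with 12 PCR cycles, and no molecular identifiers are mentioned. The CPM deposited by the authors is the count scaled by the library's total count, and the RPKM deposited by the authors is that CPM per kilobase of the deposited length. TPM was computed from counts and deposited lengths over all 41388 genes, and 40254 identifiers matched a symbol in GENCODE M21. The longest annotated transcripts came from the same release. Variation between libraries was tested with edgeR 4.0.16 (filterByExpr, TMM, trended dispersion, chi-square on the deviance) in R 4.3.3, tested on simulated data first. DESeq2 1.42.0 served as an alternative. The quasi-likelihood test needs a contrast and could not be used with 1 group. Other values used Python 3.11.15. Each library is a separate pool, so an SD covers pools and technical noise. Named were all 10 members, the 3 genes with the highest mean TPM in each partner list, list genes under 0.1 TPM or called, and the 5 genes of at least 10 TPM nearest to Ngfr, except 1 list gene that is not reported here. Chosen after their values were seen were Lingo1, Rtn4r, Shc3, Adam17, Furin, Pcsk7, Plat, Sorl1, Hap1 and the single markers named. Alternatives changed the normalization, dispersion, filter, length, TPM threshold and library left out. The members and lists were chosen with earlier results of these data known. Promoter windows were found in RefSeq for 6 of the 10 genes.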

Additional observations from a re-analysis of the deposited data

How the results depend on the processing

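The count of genes varying between libraries (24) was 55 with the length trend removed, an alternative chosen after seeing the data, and 2 to 27 with a library left out (7 without A, 2 without B). None of the other settings moved it by over 1.5 times. Ratios were the same in direction under every alternative, except 5 pairs. As CPM the mean log2 ratio turned for Ntrk2/Ntrk3 (0.94), Sort1/Sorcs3 (0.39), Ntf3/Bdnf (-1.38), Ntf3/Ntrk3 (-0.79) and Bdnf/Ntrk2 (-0.35). By longest transcript it was 2.11 for Ntrk2/Ntrk3 and 0.11 for Sort1/Sorcs3, and capped at the deposited length, also chosen after seeing the data, 0.20 and 0.11. For Ntf3/Bdnf it kept its sign but fell from 0.75 to 0.15 by longest transcript and to 0.20 when capped. The value of 2.11 divides Ntrk3 by 19703 bases, most of them outside the counted exons. Leaving out 1 library gave -0.091 to 0.020 for Sort1/Sorcs3. In the order of neighbours, where these ratios are inverted, the values were -0.94, -2.11 and -0.20 for Ntrk3/Ntrk2 and -0.39, -0.11 and -0.020 to 0.091 for Sorcs3/Sort1. Members of at least 1 TPM numbered 9, or 8 without B and 7 at 5 TPM. With 3 libraries no ratio test can pass 0.05, and at 0 to 2 counts Ntf5 allows no ratio.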

Other observations

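RefSeq lists 7 starts for Bdnf on GRCm38.p6, and the deposited count sums reads from all of them. The 250 bases before these starts differ in composition, from 39.2% to 59.6% GC. GGGCGG was in 2 of the 7 windows on either strand and TATAAA in none. Sorcs1 and Sorcs3, neighbours on chromosome 19, also differ there: 79.6% GC with 41 CG dinucleotides before Sorcs1 and 48.4% with 6 before Sorcs3, against medians of 52.4% and 6 over all windows. The neurons in which the Trk genes described here are known are mechanoreceptors and proprioceptors. Their 9 markers had a median of 43.5, 42.6 and 38.1 TPM in A, B and D. Of the 9, 8 reached 1 TPM, against 55.3% of protein-coding genes. The 9 include Ret, the gene by whose EGFP the cells were sorted. Among these, chosen after their values were seen, Maf was highest in D (15.1, 19.3 and 38.1 TPM) and Calb1 lowest there (36.9, 50.2 and 9.63 TPM), neither called by edgeR (adjusted p = 0.45 and 0.29), beside 13.8, 12.2 and 12.7 TPM for Ntrk3 and 9.51, 11.6 and 7.44 TPM for Ntrk2. With the length trend removed, log2 CPM in D minus the mean of A and B was 0.54 for Ntrk3 and -0.13 for Ntrk2.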
